A study of Trametes versicolor with 17 samples.

Results

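Hydrothermal liquefaction turns wet biomass into oil and leaves a water fraction, the aqueous phase. Here the transcripts of the white-rot fungus Trametes versicolor exposed to the aqueous phase of food waste (FW) were set against those of the same fungus exposed to that of algal biomass waste (AB). The libraries compared were the 3 FW and the 3 AB libraries after 3 days, 6 of the 17 libraries of the series, and were chosen by their labels alone. All came from wild-type mycelial pellets with the genotype label ASM 8036. The pellets had spent 3 days (72 h) at 28 °C and 135 rpm in medium of 2% malt extract with 5% aqueous phase. The 3 control libraries had the same medium, time and batch without an aqueous phase and serve as a reference level. The chemical makeup of the 2 aqueous phases is not given in the sources used here, nor is the mass or growth state of the pellets.

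White-rot fungi break down lignin with secreted oxidative enzymes. Class II peroxidases are heme enzymes that use hydrogen peroxide: manganese peroxidases (MnP) oxidise Mn(II), lignin peroxidases (LiP) oxidise non-phenolic aromatic units, and versatile peroxidases (VP) do both. Dye-decolorising peroxidases (DyP) and heme-thiolate peroxidases (HTP) form separate families of heme enzymes, and laccases (TvLac) are copper enzymes that oxidise phenols with molecular oxygen. The MnP and laccase families have many members in this fungus, and members of a family are regulated separately.

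The FW libraries held 16923906 to 18770043 counts and the AB libraries 16383455 to 17177255. Levels are given as CPM, read counts normalised to the TMM-scaled library size, and 3 counts in a library were worth 0.170 to 0.189 CPM. The median coefficient of variation among replicates, over genes at 10 CPM or more, was 12.6% for FW and 8.62% for AB. Of 14296 gene models 10838 were tested. The 3458 others had at most 1.47 CPM on average in either group. Calls were made below an adjusted p of 0.05 with edgeR's quasi-likelihood test, fitted over the 12 libraries of the 3-day batch, which include 3 of pellets exposed to 5% aqueous phase of salad dressing waste. These 3 bear on the filter, the scaling and the estimate of the spread. SD after ± is over the 3 replicates of a group.

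The transcripts of the FW and AB pellets differed widely. Between FW and AB 4564 genes were called, 42.1% of those tested: 2375 (21.9%) were higher under FW and 2189 (20.2%) higher under AB. The large differences lay mostly on the FW side. Of the 2231 called genes that differed at least 2-fold (20.6% of those tested), 1367 (12.6%) were higher under FW and 864 (7.97%) higher under AB. At a log2 fold change of 3 or more the counts were 285 and 95, and at 5 or more they were 74 and 22. The median log2 fold change over all tested genes was 0.01. The FW and AB libraries did not overlap in 55.8% of all tested genes, and in 4467 of those called.

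**Figure D1:**
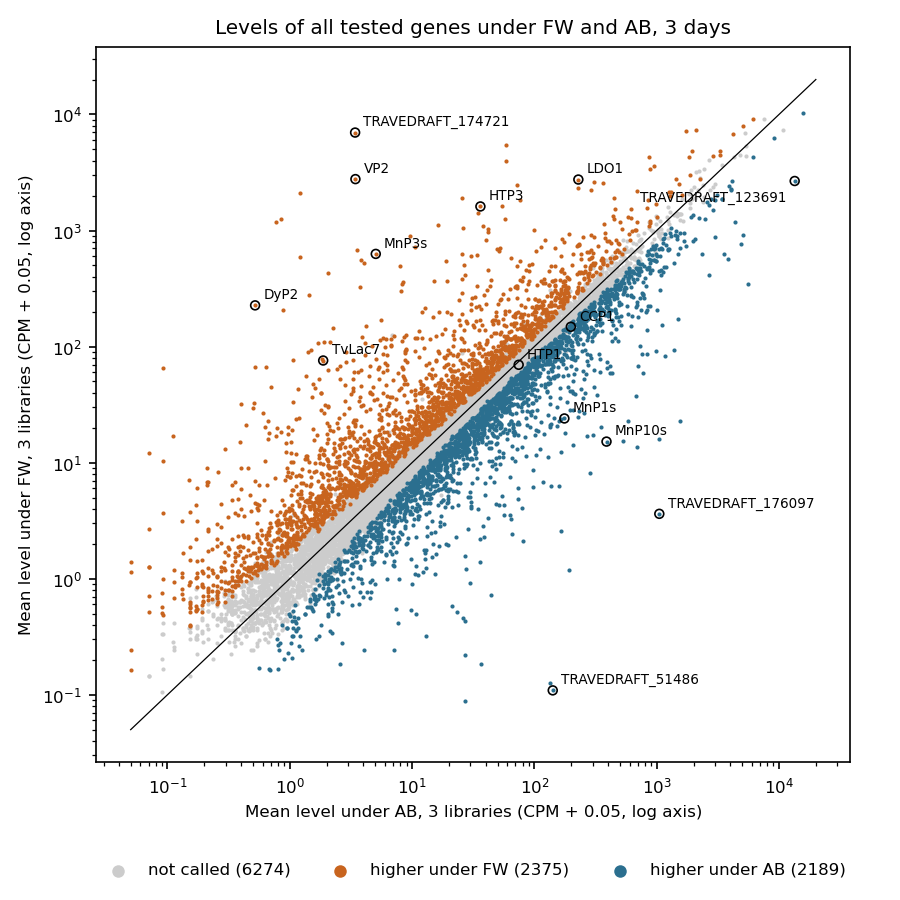
Mean level of each tested gene under AB (horizontal) and FW (vertical), in CPM plus 0.05 on log axes, 3 libraries a group, coloured by the call, with the line of equal levels. VP2 and TRAVEDRAFT_174721 stand far above the line at over 1000 CPM under FW and under 5 CPM under AB, TRAVEDRAFT_176097 and TRAVEDRAFT_51486 lie far below it, and HTP1 and CCP1 lie near it.

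The genes that were 2-fold higher under FW took 17.3% to 21.6% of all counts in the FW libraries, 20.4% to 22.1% in the controls and 4.10% to 4.22% in the AB libraries. The genes that were 2-fold higher under AB took 15.8% to 16.2% of the counts in the AB libraries, 3.78% to 4.91% under FW and 3.07% to 3.47% in the controls. By these shares of counts, the control libraries lay nearer to FW than to AB for both sets. Both sets were chosen by the FW to AB difference, and abundant genes weigh most in the shares. The shares therefore do not place the FW libraries as a whole near the controls. In such bulk pellets, fewer hyphae that express a gene and less RNA of that gene per hypha cannot be told apart.

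All 3 versatile peroxidases were higher under FW, where 21.9% of all tested genes were. VP2 (scaffold 2, 411397 to 413494, 12 exons) stood at 3248, 1217 and 3851 CPM in FW replicates 1, 2 and 3 and at 3.65, 3.32 and 3.20 CPM in the AB replicates. Every FW library was far above every AB library, although FW replicate 2 was well below the other FW replicates. The log2 fold change was 9.67 (SE 0.47, adjusted p = 6.65e-09). Ranked by level per kb of exon among all gene models, VP2 was number 37 under FW, 191 in the controls and 8452 under AB.

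VP3at (scaffold 6) had 72.4, 9.04 and 121 CPM under FW against 2.52, 1.87 and 3.20 CPM under AB. FW replicate 2 was the low one again, and its 9.04 CPM also lay below the controls (58.3 ± 2.89 CPM, SD, n = 3). The log2 fold change was 4.73 (SE 0.70, adjusted p = 0.000139), or 4.005 without FW replicate 3. VP1 was scarce in both groups, at 2.21 ± 0.684 and 0.403 ± 0.400 CPM (SD, n = 3), and its log2 fold change of 2.42 (adjusted p = 0.00342) became 3.53 without AB replicate 2.

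Manganese peroxidases divided into 3 sets. Of 13 MnP models 11 were tested: 6 were higher under FW, 2 were higher under AB and 3 were not called (21.9% and 20.2% of all tested genes were higher under FW and AB), with a median log2 fold change of 1.88 beside 0.01 for all genes. The most abundant one differed by group. MnP3s led under FW, at 590, 201 and 1094 CPM, and had 4.85, 5.61 and 4.53 CPM under AB (log2 difference 6.97 with SE 0.79, adjusted p = 1.28e-05, and 6.30 without FW replicate 3). MnP10s led under AB, at 149, 648 and 368 CPM, and had 12.6, 14.7 and 18.04 CPM under FW (-4.68, SE 0.44, adjusted p = 2.51e-06, and -4.10 without AB replicate 2). The groups overlapped in neither gene. In the controls MnP3s had 36.3 ± 34.5 CPM and MnP10s 15.0 ± 4.86 CPM (SD, n = 3), so that MnP3s was above the control mean under FW and below it under AB, while MnP10s under FW stood at the control level.

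MnP1s was the other member with more transcript under AB, with 85.9, 287 and 154 CPM against 26.4, 17.3 and 28.2 CPM under FW (log2 difference -2.87 with SE 0.37, adjusted p = 3.97e-05). Both values were above the controls, which had 5.24 ± 0.989 CPM (SD, n = 3). AB replicate 1 was the lowest and AB replicate 2 the highest AB library for MnP1s and MnP10s alike.

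The remaining MnP genes higher under FW were less abundant than MnP3s. MnP4s (98.4, 64.0 and 105 CPM under FW, 2.46, 2.65 and 3.44 CPM under AB) differed by 4.96 on the log2 scale (SE 0.25, adjusted p = 1.01e-08). MnP13, whose model is short at 714 bases of exon, had 49.3, 15.3 and 55.4 CPM under FW and 2.08, 1.27 and 1.87 CPM under AB (4.52, SE 0.51), both above the control mean of 0.356 CPM. FW replicate 2 was again the lowest FW library in both. MnP5s (4.06, or 3.33 without FW replicate 1), MnP11s (3.25, or 2.56 without FW replicate 3) and MnP7s (1.88) were also higher under FW. The call of MnP7s (adjusted p = 0.0239) was lost without FW replicate 3 (0.0911), AB replicate 1 (0.0903) or AB replicate 3 (0.0547).

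MnP8s, MnP9s and MnP2s were not called, and their 95% intervals bound the difference. MnP8s had 15.0 ± 3.28 CPM under FW and 16.2 ± 1.17 CPM under AB (SD, n = 3), with an interval of -0.52 to 0.30 on the log2 scale. That of MnP2s ran from -0.78 to 0.05 and that of the scarce MnP9s from -0.73 to 0.57. MnP6s and MnP12s were below the filter, at no more than 0.350 CPM on average.

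MnP genes of different sets stood close together on the genome. On scaffold 10, MnP7s and MnP4s are direct neighbours 4.06 kb apart and both were higher under FW. MnP8s and MnP9s, neighbours 1.41 kb apart that were not called, lie 13972 bases beyond MnP4s, with the scarce MnP6s between. Reads from near-identical copies could be shared among these genes by the counting, and the values of single MnP genes are uncertain to that extent.

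Lignin peroxidase transcripts were mostly scarce. Of 10 tested LiP genes 3 were higher under FW and 7 were not called, with a median log2 fold change of 0.38; the share higher under FW, 30%, is near the 21.9% of all tested genes. LiP2 stood at 89.6, 19.9 and 29.5 CPM under FW and 6.55, 5.67 and 6.10 CPM under AB. The groups did not overlap, and FW replicate 1 was the highest FW library by far. The log2 fold change was 2.92 (SE 0.77, adjusted p = 0.00802), and 2.02 (adjusted p = 0.0452) without FW replicate 1. LiP9 (3.45 ± 0.518 against 1.60 ± 0.605 CPM, SD, n = 3) and LiP1 (2.23 ± 0.525 against 1.04 ± 0.182 CPM) had log2 fold changes of 1.11 and 1.10, and the LiP1 call was lost without FW replicate 1 (adjusted p = 0.0550) or AB replicate 3 (0.0506). None of the 7 LiP genes without a call had a mean above 7.86 CPM in either group, and LiP12 among them overlaps another gene model.

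**Figure D2:**
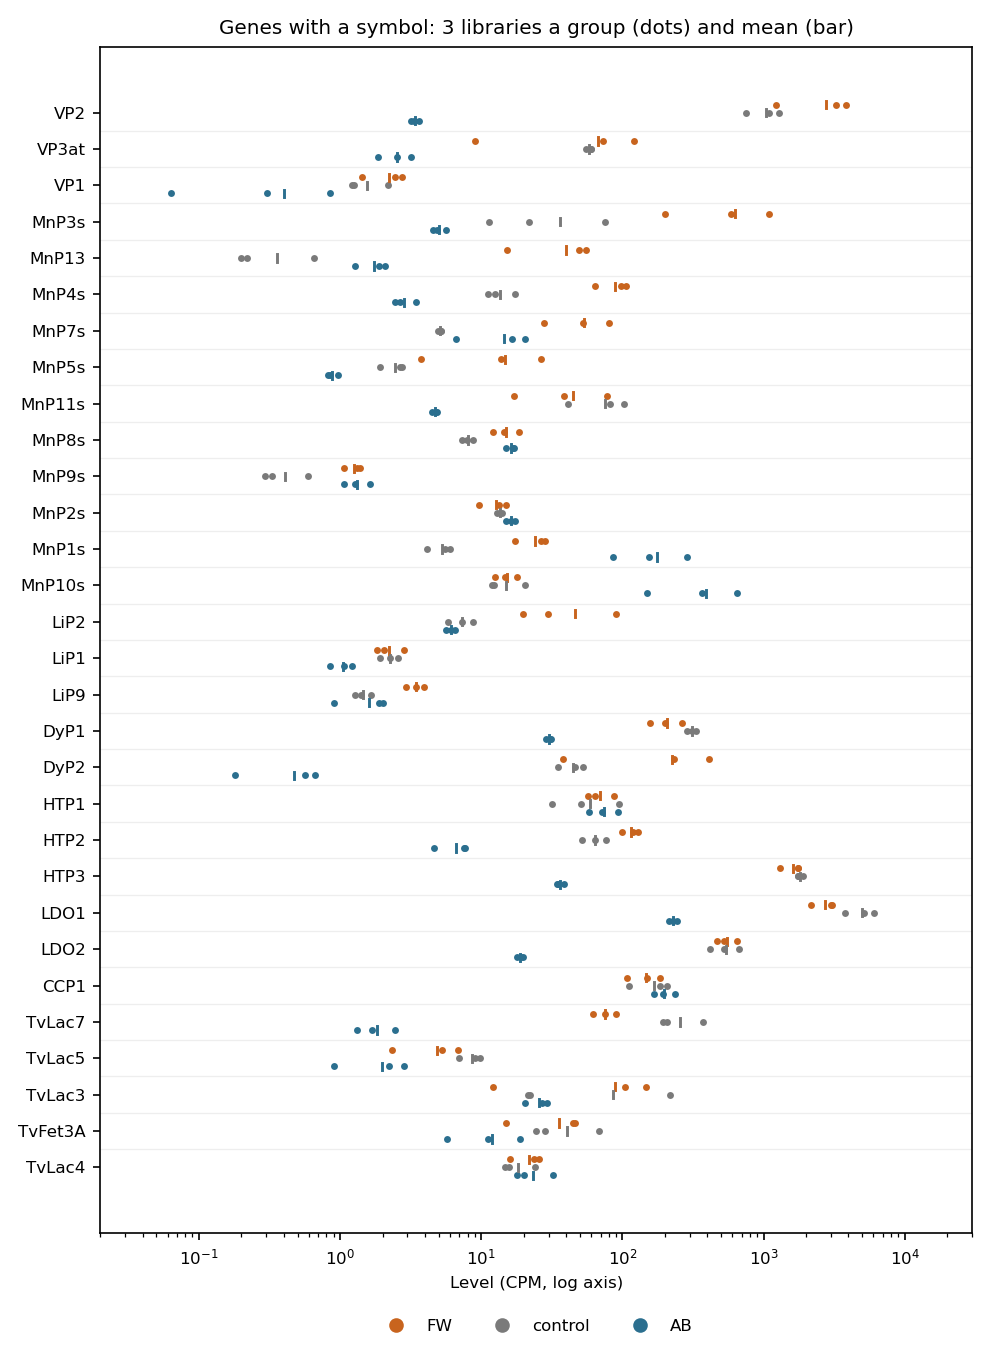
Level in CPM (log axis) of 30 genes with a symbol in each of the 3 FW, 3 control and 3 AB libraries (dots), with the group mean as a bar. The FW and AB dots are apart for the VP genes, MnP3s, MnP4s, HTP3 and both LDO genes, stand in the opposite order for MnP10s and MnP1s, and mix for HTP1, MnP8s, CCP1 and TvLac4.

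Summed per kb of exon, the class II genes (26 MnP, VP and LiP models) had 3018 ± 1555 CPM per kb under FW, 605 ± 328 under AB and 989 ± 240 in the controls (SD, n = 3). Each FW library (1308 to 4348) was above each AB library (296 to 949). The MnP genes taken alone did not separate in the same way: their sum was 371 to 1404 CPM per kb in the FW libraries and 268 to 923 in the AB libraries, which overlap, against 104 to 230 in the controls. The makeup of the sum differed as well. VP2 held 64.6% to 69.7% of it in the FW libraries, 71.4% to 82.1% in the controls and 0.255% to 0.900% in the AB libraries. MnP10s held 46.4% to 62.9% and MnP1s 24.7% to 27.6% in the AB libraries, against at most 1.04% and 1.20% under FW.

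**Figure D3:**
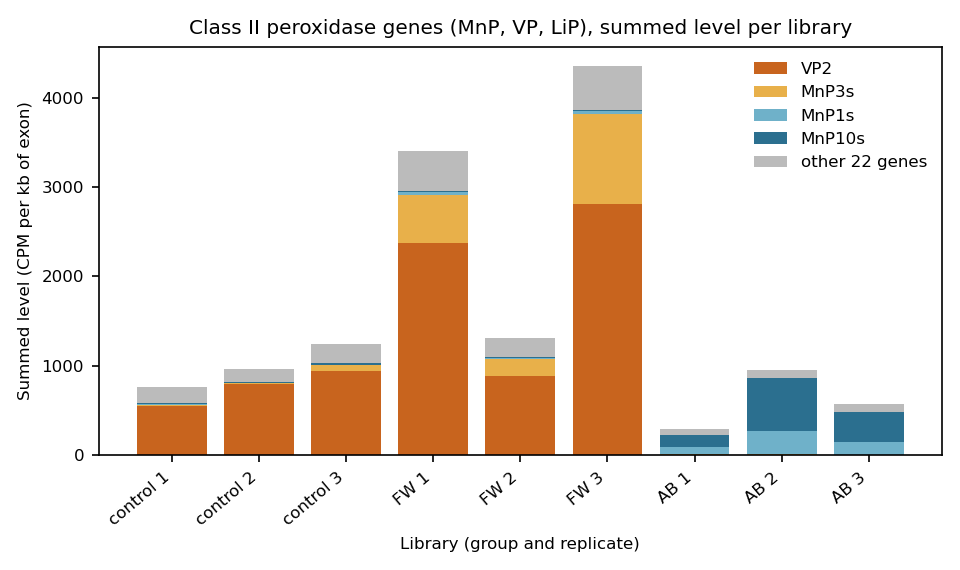
Summed level of the 26 class II peroxidase genes in each library, in CPM per kb of exon, divided by gene. VP2 and MnP3s fill most of each FW bar, MnP10s and MnP1s most of each AB bar, and the FW bars run from 1308 to 4348 against 296 to 949 for AB.

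The DyP, HTP and LDO genes, with the exception of HTP1, were higher under FW, as were 21.9% of all tested genes. DyP2 (scaffold 7, 2137219 to 2139041) had 232, 37.7 and 409 CPM under FW and 0.567, 0.663 and 0.181 CPM under AB. FW replicate 2 lay within the control range and still far above all AB libraries. The log2 fold change was 8.89 (SE 0.89, adjusted p = 4.70e-06), or 8.15 without FW replicate 3. DyP1, 10.5 kb away, had 207 ± 53.3 CPM under FW and 30.2 ± 1.43 CPM under AB (SD, n = 3; 2.78, SE 0.22).

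HTP3 and HTP2 are direct neighbours on scaffold 12 with 1201 bases between them. HTP3 had 1760, 1308 and 1765 CPM under FW and 34.6, 35.1 and 38.7 CPM under AB (log2 difference 5.48 with SE 0.23, adjusted p = 2.32e-09). HTP2 had 130, 99.6 and 118 CPM against 7.62, 4.64 and 7.61 CPM (4.13, SE 0.24). FW and AB did not overlap in either gene. HTP1, on scaffold 3, had 69.6 ± 15.6 CPM under FW and 74.3 ± 17.6 CPM under AB (SD, n = 3), and the interval of its log2 difference was -0.89 to 0.70.

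LDO1 was among the most abundant transcripts with a symbol. It had 3030, 2163 and 3052 CPM under FW and 214, 243 and 229 CPM under AB (log2 difference 3.59 with SE 0.22, adjusted p = 6.61e-08), both below the controls at 5007 ± 1121 CPM (SD, n = 3). LDO2 had 548 ± 94.8 and 18.9 ± 1.02 CPM (4.86, SE 0.20), with controls at 538 ± 125 CPM, close to FW. CCP1 (by its symbol a cytochrome c peroxidase, which in yeast removes hydrogen peroxide in mitochondria) was not called, at 148 ± 39.3 and 198 ± 34.0 CPM with an interval of -0.98 to 0.13.

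Of 8 laccases and related multicopper oxidases 2 were higher under FW, or 25%, near the 21.9% of all tested genes. TvLac7 was the one with a large difference. It had 90.8, 61.5 and 75.0 CPM under FW and 2.46, 1.33 and 1.69 CPM under AB (log2 difference 5.37 with SE 0.39, adjusted p = 2.24e-07), both below the 257 ± 98.9 CPM of the controls (SD, n = 3). TvLac5 was also called (1.28, adjusted p = 0.0356), but its groups overlapped and the call was lost without FW replicate 1, FW replicate 2, AB replicate 2 or AB replicate 3 (adjusted p 0.0668 to 0.131). The other 6 were not called. TvFet3A, whose symbol places it with the Fet3-type ferroxidases of iron uptake known from yeast, had 44.9, 46.0 and 14.9 CPM under FW and 18.8, 5.73 and 11.2 CPM under AB. FW replicate 3 fell among the AB libraries, and the log2 difference of 1.57 had an adjusted p of 0.0520, which fell below 0.05 under 5 of 14 alternatives: without FW replicate 3 (0.0232) or AB replicate 1 (0.0379), with the FW and AB libraries alone (0.0248), without a filter (0.0478) and with thinned counts (0.0479).

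TvLac3 shows how wide the spread was for some laccases. It had 105, 147 and 12.1 CPM under FW, 29.3, 20.3 and 26.8 CPM under AB, and 21.3, 216 and 22.04 CPM in the controls. FW replicate 3 and control replicate 2 stood apart from their groups, and the interval of the FW to AB difference ran from -0.85 to 4.43 on the log2 scale. The interval was narrower for TvLac4 (-0.75 to 0.56) and TvLac6 (-0.02 to 0.79), and wide for TvLac1 (-1.83 to 3.01) and TvLac2 (-3.59 to 0.12).

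Over all 40 tested genes with a symbol 20 were higher under FW (21.9% of all genes were) and 2 higher under AB (20.2% of all genes were). Of the 18 heme peroxidase and LDO genes that were higher under FW, FW replicate 2 was the lowest FW library for 16, and FW replicate 3 was the highest for 12. Over all 1367 genes 2-fold higher under FW, FW replicate 2 was the lowest for 53.5%. Replicate 2 stood out in the other groups too, on the first principal component, the axis of largest spread over the 12 libraries. There it was the highest of its group in the controls (-55.2), under FW (4.20), under salad dressing (-28.6) and under AB (98.5). Among the 18 heme peroxidase and LDO genes, control replicate 2 was the lowest control library for DyP1, DyP2, HTP3, LDO1, LiP2, MnP3s, MnP4s, MnP5s, MnP11s and MnP13. It was not the lowest for the rest, VP1, VP2, VP3at, MnP7s, LiP1, LiP9, HTP2 and LDO2. What sets FW replicate 2 apart, and whether same-numbered libraries share it, was not tested.

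Beside VP2 and DyP2, the 8 largest differences in each direction were in gene models without a symbol, as are nearly all models (42 of 14296 carry one), and the reference used here gives no product for them. TRAVEDRAFT_174721 (scaffold 13, 603124 to 605868, 16 exons) had 7790, 4832 and 8323 CPM under FW and 3.65, 3.01 and 3.44 CPM under AB, and the log2 difference was 11.01 (SE 0.37, adjusted p = 6.93e-10). It was number 14 of all models by level per kb under FW and number 8943 under AB. TRAVEDRAFT_86104 (scaffold 9, 2636583 to 2637007), a short model of 303 exon bases, had 2108, 1383 and 2785 CPM against 1.32, 1.15 and 1.03 CPM (10.80, SE 0.47), and was number 7 by level per kb under FW. Both were abundant in the controls too, at 4325 ± 1370 and 872 ± 333 CPM (SD, n = 3).

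TRAVEDRAFT_52920 (scaffold 12) had 1260 ± 461 CPM under FW and 0.798 ± 0.127 CPM under AB (SD, n = 3), and TRAVEDRAFT_53859 (scaffold 14) 593 ± 303 and 1.17 ± 0.211 CPM. TRAVEDRAFT_127464 (scaffold 8) had 3347 counts over the FW libraries and 2 over the AB libraries, 1582-fold more after scaling (95% counting interval 438 to 13068). A pair of neighbours on scaffold 1, 1027 bases apart, was high under FW and low under AB. TRAVEDRAFT_42584 (4479612 to 4481092) had 1388, 859 and 1283 CPM under FW and 1.20, 0.482 and 0.483 CPM under AB (10.67, SE 0.39). TRAVEDRAFT_160067 (4475963 to 4478584) had 5752, 5355 and 5368 CPM against 61.8, 47.4 and 67.5 CPM (6.54, SE 0.20, adjusted p = 5.41e-10).

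Genes near silence under FW that were expressed under AB were fewer. TRAVEDRAFT_176097 (scaffold 17, 3095 to 5317) had 3.50, 5.03 and 2.18 CPM under FW and 1100, 993 and 1056 CPM under AB (log2 difference -8.20 with SE 0.29, adjusted p = 6.93e-10). TRAVEDRAFT_20736 (scaffold 6, 2298750 to 2299358) had 4 counts over the FW libraries and 110, 160 and 133 CPM under AB, a log2 fold change of -10.64, or -11.86 without FW replicate 3. TRAVEDRAFT_51486 (scaffold 10) had 3 counts against 6943 (ratio 2448, counting interval 837 to 11875), and TRAVEDRAFT_54052 (scaffold 15) 2 against 1342 (ratio 710, interval 196 to 5867). TRAVEDRAFT_171861 (scaffold 9) had 1.14 ± 0.474 CPM under FW and 191 ± 58.3 CPM under AB (SD, n = 3), and the log2 fold changes of TRAVEDRAFT_75283, TRAVEDRAFT_119225 and TRAVEDRAFT_17633 were -8.01, -7.22 and -6.10. That of TRAVEDRAFT_119225 was -6.50 without AB replicate 2.

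**Figure D4:**
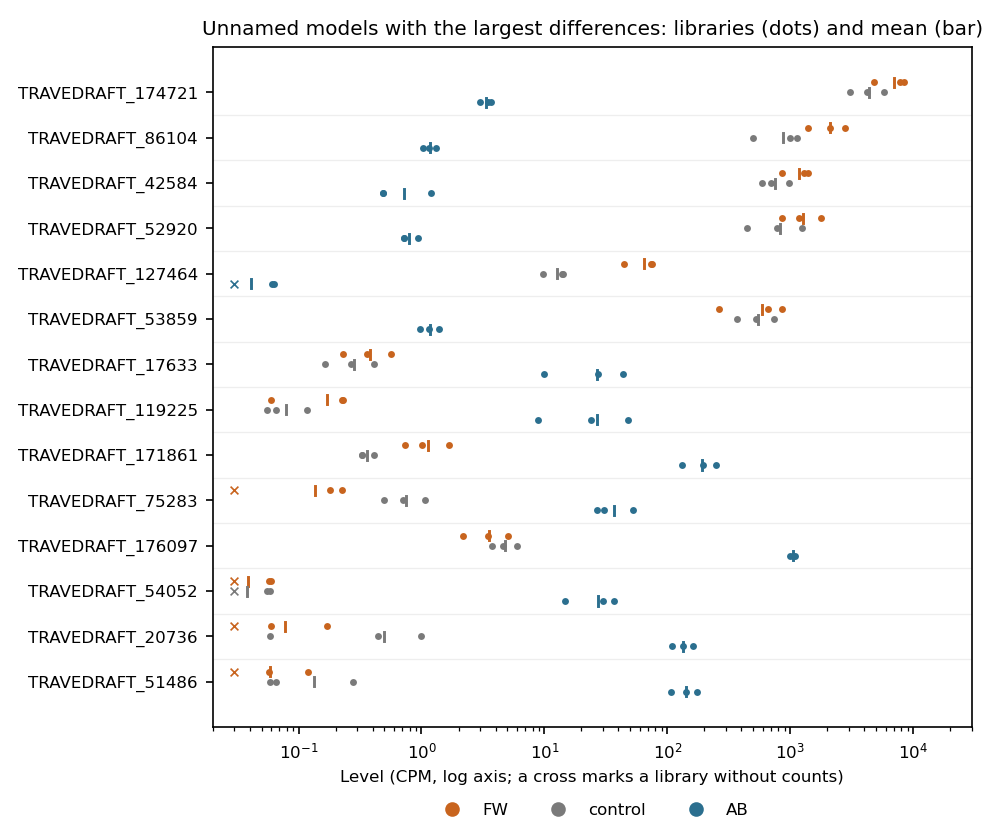
Level in CPM (log axis) of the 14 models without a symbol among the 8 largest differences in each direction, in each FW, control and AB library (dots, with the mean as a bar and a cross for a library without counts). The control dots lie nearer to the FW dots than to the AB dots in the upper 6 models and, at low levels, in the lower 8.

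The control levels differed between the 2 directions of near-silence. At 100 CPM or more under FW and under 5 CPM under AB there were 23 called genes, with VP2, DyP2 and MnP3s among them, and their control means ran from 19.2 to 4325 CPM, with 18 of the 23 at 100 CPM or more. In the opposite direction there were 5 genes, and all 5 had control means under 5 CPM. Of the 1367 genes 2-fold higher under FW, the control mean was above both groups for 709, between them for 536 (nearer to FW for 361, on a log2 scale) and below both for 122. Of the 864 genes 2-fold higher under AB, the control mean was below both groups for 556, between them for 266 (nearer to FW for 197) and above both for 42. These are positions of means, with no test of either group against the controls.

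The most abundant transcripts that differed at least 2-fold were also without a symbol. TRAVEDRAFT_123691 (scaffold 6, 139934 to 141556) had 14436, 12367 and 13490 CPM under AB and 2528, 3630 and 1851 CPM under FW (log2 difference -2.33 with SE 0.24, adjusted p = 5.38e-06), with controls at 1403 ± 377 CPM (SD, n = 3). It was number 3 of all models by level per kb under AB. TRAVEDRAFT_153507 (scaffold 10, 1865947 to 1868411) had 5368, 5712 and 5669 CPM under AB, 337, 254 and 447 CPM under FW and 19.2 ± 4.81 CPM in the controls (-4.01, SE 0.23). For both genes AB was highest, FW lower and the controls lowest. The same order of means held for TRAVEDRAFT_37921, TRAVEDRAFT_150580 and TRAVEDRAFT_59617, with log2 fold changes of -2.49, -2.69 and -1.87.

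Higher under FW among the abundant transcripts were TRAVEDRAFT_170658 (7311 ± 1402 against 2107 ± 206 CPM, SD, n = 3) and TRAVEDRAFT_163607 (7215 ± 2219 against 1723 ± 69.9 CPM), beside TRAVEDRAFT_174721 and TRAVEDRAFT_160067. TRAVEDRAFT_163607, with 473 exon bases, was number 3 by level per kb under FW, number 1 in the controls and number 21 under AB. TRAVEDRAFT_69281 had 4809 ± 526 CPM under FW, 1939 ± 365 under AB and 471 ± 132 in the controls (log2 fold change 1.31, adjusted p = 0.00353). Both exposed groups were thus above the controls for TRAVEDRAFT_69281, and FW was the higher of them.

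Some transcripts were steady between the groups. For 1593 genes (14.7% of those tested) the 95% interval of the log2 fold change lay within -0.5 to 0.5. The most abundant of these per kb, TRAVEDRAFT_29347 (scaffold 7, 54818 to 56422), had 4998, 5228 and 5734 CPM under FW and 4989, 5500 and 5552 CPM under AB, with an interval of -0.26 to 0.25. Both groups lay below its controls at 9072 ± 672 CPM (SD, n = 3). TRAVEDRAFT_123662 and gene_14117, a model of 150 bases that matched no RefSeq gene, had intervals of -0.10 to 0.39 and -0.48 to 0.39.

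Some neighbouring genes differed in the same direction. Stretches of tested neighbours on 1 scaffold that were all called and at least 2-fold higher under FW reached 7 genes once, 6 once and 5 in 5 cases, while those higher under AB reached 4 genes in 4 cases. How many such stretches the numbers of called genes alone would give was not tested. The 2-fold limit here is on the estimate. With a 2-fold minimum within the test, each stretch described below lost calls, except that on scaffold 8. Higher under FW, these were TRAVEDRAFT_110984 and TRAVEDRAFT_157673 (scaffold 1), and TRAVEDRAFT_32021 and TRAVEDRAFT_135660 (scaffold 14). Higher under AB, they were TRAVEDRAFT_55832 (scaffold 1), TRAVEDRAFT_113954 and TRAVEDRAFT_17636 (scaffold 2), and TRAVEDRAFT_175775 (scaffold 15). The 6-gene stretch on scaffold 1 (604428 to 639016) is made of LDO1 and 5 neighbours with no other gene model between them. TRAVEDRAFT_67857 had 1199, 929 and 1138 CPM under FW and 31.8, 41.2 and 40.4 CPM under AB (log2 fold change 4.85, SE 0.18), and TRAVEDRAFT_55003 had 358 ± 99.8 and 8.40 ± 0.651 CPM (SD, n = 3; 5.41, SE 0.25). Both were higher still in the controls, at 2695 ± 99.7 and 813 ± 140 CPM, as was LDO1. TRAVEDRAFT_41317 (2.66), TRAVEDRAFT_157673 (1.19) and TRAVEDRAFT_110984 (1.12) made up the rest, and the call of the last was lost without AB replicate 3 (adjusted p = 0.0548).

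The 7-gene stretch on scaffold 14 (45184 to 108218) skips models below the filter, since its span holds 22 gene models. Only TRAVEDRAFT_24458 (67.2 ± 23.6 against 0.593 ± 0.201 CPM, SD, n = 3; log2 fold change 6.81) and TRAVEDRAFT_53580 (31.9 ± 15.4 against 0.347 ± 0.0399 CPM; 6.49) in it reached 10 CPM. The last 2 tested models in it, TRAVEDRAFT_32021 and TRAVEDRAFT_135660, had 1.10 and 0.346 CPM under FW, and the call of TRAVEDRAFT_135660 (adjusted p = 0.0280) was lost without FW replicate 1 or 3 or any 1 AB library (0.0542 to 0.104) and with DESeq2 (0.0794). On scaffold 8 (2227887 to 2249326) TRAVEDRAFT_170931 led 5 genes, with 1399, 2057 and 826 CPM under FW and 37.8, 25.4 and 41.2 CPM under AB (5.36, SE 0.34). Among its members under 10 CPM, TRAVEDRAFT_21877 went from a log2 fold change of 4.42 to 5.31 without AB replicate 2 and TRAVEDRAFT_21881 from 3.95 to 4.76 without AB replicate 1.

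Among the stretches higher under AB, the one on scaffold 1 (4419327 to 4433128) held TRAVEDRAFT_26068, TRAVEDRAFT_160039, TRAVEDRAFT_55832 and TRAVEDRAFT_26075, with log2 fold changes of -1.53, -2.43, -2.02 and -3.41. All 4 were above 10 CPM under AB, from 50.9 ± 11.3 CPM for TRAVEDRAFT_55832 to 694 ± 25.0 CPM for TRAVEDRAFT_26068 (SD, n = 3). On scaffold 2 (2520626 to 2528224) TRAVEDRAFT_141915 (196 ± 56.8 against 28.4 ± 4.29 CPM) and TRAVEDRAFT_113954 (104 ± 5.41 against 42.1 ± 12.1 CPM) lay between TRAVEDRAFT_17633 and TRAVEDRAFT_17636. The call of the scarce TRAVEDRAFT_17636 was lost without FW replicate 3, AB replicate 1 or AB replicate 3 (adjusted p 0.0661 to 0.0975). On scaffold 15 (567424 to 582957) TRAVEDRAFT_54052 stood with TRAVEDRAFT_54050, TRAVEDRAFT_75483 and TRAVEDRAFT_175775, whose log2 fold changes were -2.51, -1.70 and -1.02.

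**Figure D5:**
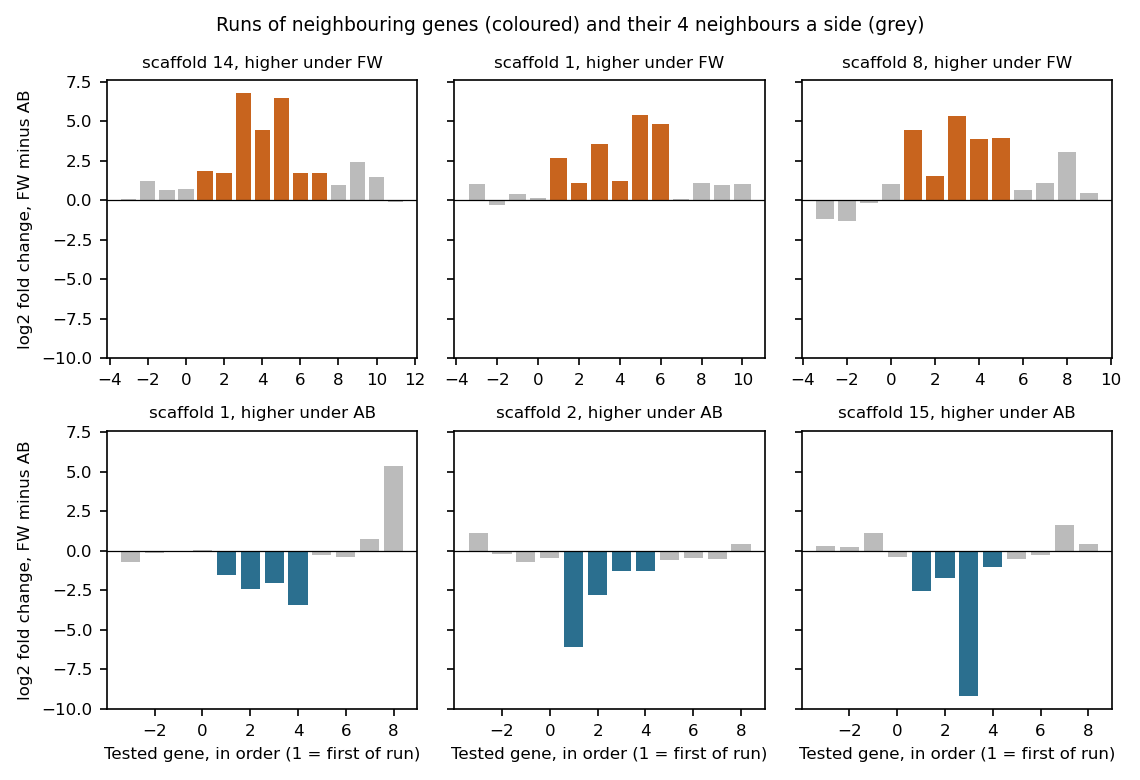
Log2 fold change (FW minus AB) of the tested genes, in genome order, of the 3 longest stretches in each direction (coloured) and of 4 tested neighbours on each side (grey). The coloured bars differ at least 2-fold in 1 direction, and most of the grey bars beside them are shorter.

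The gene models of both sets were described by their length and exons. The median exon length was 1156 bases for genes 2-fold higher under FW, 1346 for genes 2-fold higher under AB and 1318 for all tested, with a median of 5 exons in each. The shares of genes without an intron were 7.61%, 6.71% and 5.43%. Over the 17 scaffolds with at least 100 tested genes, the share of called genes ran from 37.8% to 49.5%.

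A separate batch, labelled preliminary, holds AB pellets (n = 3) and controls (n = 2) after 7 days, and shares no library with the comparison above. There 334 of 10192 genes (3.28%) were called between AB and control. Of 37 named genes that were higher under FW than under AB at 3 days and were tested at 7 days, 6 were called lower in AB than in control: VP2, VP3at, TvLac5, LDO2, TRAVEDRAFT_30240 and TRAVEDRAFT_49753. VP2 had 5.10 ± 2.81 CPM under AB (SD, n = 3) and 360 and 340 CPM in the 7-day controls (log2 fold change -6.10, adjusted p = 0.0104). Of 23 named genes higher under AB at 3 days, 3 were called higher in AB at 7 days: TRAVEDRAFT_171861 (5.23), TRAVEDRAFT_153507 (3.03) and TRAVEDRAFT_176097 (2.96). None of these 60 genes was called in the opposite direction, but uncalled genes among them went both ways. LDO1, higher under FW at 3 days, had 400 ± 264 CPM under AB at 7 days (SD, n = 3). Its 7-day controls had 53.5 and 101 CPM (log2 fold change 2.37, adjusted p = 0.176). TRAVEDRAFT_75283, higher under AB at 3 days, had 23.7 ± 30.2 CPM under AB and 114 and 112 CPM in the controls (-2.25, adjusted p = 0.427). DyP1, also uncalled, was lower in AB (-6.11). Most of the 9 calls listed were not firm. With the replicate block, only VP2 of them was still called, and VP2 alone without control replicate 1. Without AB replicate 3 the calls of VP2 and TvLac5 were left, and without control replicate 2 none of the 9. Without AB replicate 1 the calls of LDO2, TRAVEDRAFT_30240, TRAVEDRAFT_49753, TRAVEDRAFT_153507 and TRAVEDRAFT_176097 were lost, and without AB replicate 2 that of LDO2.

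Over all genes tested at both times, 2.35% were called lower and 0.879% higher in AB at 7 days. Among genes 2-fold higher under FW at 3 days 8.35% (98 of 1173) were called lower in AB at 7 days, which is 41.7% of the 235 genes called lower there, and 9 were called higher. Among genes 2-fold higher under AB 4.68% (38 of 812) were called higher, 43.2% of 88, and 14 were called lower. These edgeR calls rest on few libraries: without 7-day control replicate 2 the count of called genes was 0 (1661 at an unadjusted p of 0.05), it was 78 without control replicate 1, 164 and 208 without AB replicate 3 and 1, and 689 without AB replicate 2, against 1360 with DESeq2. Several genes that were high under FW at 3 days had little transcript in the 7-day controls themselves. TvLac7 had 0.511 and 0.619 CPM there and TRAVEDRAFT_174721 had 1.69 and 1.24 CPM, and DyP2 had no count in any of the 5 libraries. The 2 batches were scaled separately, and time and batch cannot be told apart between them.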

How the data were processed

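RNA of mycelial pellets was measured by polyA-selected mRNA sequencing. Per the labels, 200 ng of total RNA went into each library. The authors deposited raw read counts for each gene model, with no normalisation. The tools listed are HISAT2 (an aligner) and featureCounts (a read counter), per the submitters' processing notes, with no version. The build, the strand setting and how multiply placed reads were treated were not given in the sources used here. The authors' table also gives the exon length of each model, which was used for levels per kb. Of 14296 models 14214 matched RefSeq genes of Trametes versicolor v1.0 by start and end, and 42 carry a symbol. That assembly is of strain FP-101664 SS1, and the genotype label of the samples is ASM 8036. Of the models 158 overlap another on the opposite strand. No sequences or product names were used, so sequence classes and promoter motifs that had been planned were not formed.

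Differences came from edgeR 4.0.16 in R 4.3.3: TMM scaling, the default filter by group, 1 model over 12 libraries (residual degrees of freedom 8, biological coefficient of variation 0.188), the quasi-likelihood F test, two-sided, and Benjamini-Hochberg adjustment over all tested genes. A positive log2 fold change means higher under FW. SE is the log2 fold change divided by the square root of F, and is approximate at low counts. Intervals of ratios are exact and cover counting error only. The 7-day batch was fitted alone (residual degrees of freedom 3). Sample titles say biological replicate without naming separate cultures, so p-values reflect the spread among these samples, which may be technical in part. The method was tested on simulated data with far fewer changed genes than were called here, as many raised as lowered. That test does not check the scaling or the error rate under differences as wide and uneven as these.

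Named genes were all those with a symbol, the 8 largest differences in each direction (called, not overlapping, 10 CPM or more), the 5 most abundant in each direction that differed 2-fold, the 3 most abundant steady genes per kb, and the 3 longest stretches in each direction, with ties taken by summed level, a choice made after seeing the data. Members and lists were chosen with earlier results of these data known.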

Additional observations from a re-analysis of the deposited data

How the results depend on the processing

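The 14 alternatives at 3 days were DESeq2 1.42.0, RLE factors, a filter at 10 CPM, no filter, FW and AB libraries alone, a replicate block, thinning to the smallest library, a 2-fold minimum within the test, and leaving out each of the 6 libraries. Called genes numbered 3722 to 4331 when 1 library was left out (1958 to 2306 higher under FW, 1703 to 2025 higher under AB, 2097 to 2268 at least 2-fold). Whether shared replicate numbers mark a pairing is not given by the labels and was not tested across all groups. Deviations of same-numbered FW and AB libraries correlated at -0.13 to 0.13, and that check covered FW and AB only. On the first principal component replicate 2 stood highest and replicate 3 lowest in each group of the 3-day batch. The replicate block, with 4559 called, moved no count by over 1.5 times and ended no named call. With it the log2 differences of the uncalled TvLac3 and TvLac1 went from 1.79 to 0.98 and from 0.59 to 0.08. With the 2-fold minimum 1090 genes were called, 720 higher under FW and 370 higher under AB, which raises the share on the FW side from 52.0% to 66.1%; that test asks for more than the main one. At 10 CPM 1198 genes were called and at least 2-fold, of 6527 tested. RLE factors shifted the median of all genes by -0.01. Of 72 named calls 58 held under every alternative in which the gene was tested, and no called gene changed sign.

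Uncalled genes near 0 did change sign. For TRAVEDRAFT_29347 the log2 difference was -0.01, with 0.0121 without a filter, 0.0539 at 10 CPM, 0.0111 in FW and AB alone and -0.0649 to 0.0437 without 1 library. For gene_14117 it was 0.0152 at 10 CPM and -0.21 to 0.10 without 1 library. Without 1 library HTP1 ran from -0.27 to 0.10, LiP4 from -0.11 to 0.69, MnP8s from -0.27 to 0.0243, MnP9s from -0.21 to 0.10 and TvLac4 from -0.25 to 0.20. At 7 days the 334 calls became 1360 with DESeq2, 91 with the replicate block and 0 to 689 without 1 library. Genes below about 0.19 CPM were under the level of 3 counts in an AB library.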
